A study of Homo sapiens with 14 samples.

Results

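SB431542 (SB4) blocks the kinase activity of the receptors that carry TGF-beta, activin and nodal signals. The comparison described here asked whether its effect on gene expression differed between human neural crest cultures induced with a high and with a low dose of CHIR99021. CHIR99021 inhibits the kinase GSK3 and thereby activates canonical Wnt signaling. Of the 14 libraries in the series, 8 enter the comparison, chosen by their titles: high Wnt + SB4, high Wnt, low Wnt + SB4 and low Wnt, with 2 libraries each. All 4 groups were made from WA01 (H1), a human embryonic stem cell line, by a 5-day induction with CHIR99021 present during hours 0 to 72, at 10 µM in the high Wnt groups and at 3 µM in the low Wnt groups. SB4 was present at 10 µM from hour 0 to hour 120, so both SB4 groups carried it for the whole induction. The other groups had no additive. One cell line and one time point were sampled, and since no label states that a group's 2 libraries are separate cultures, p-values cover only the variation among libraries, which may be technical.

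Ligands of the TGF-beta family bring together type II and type I receptors, which phosphorylate SMAD2 and SMAD3. These move with SMAD4 into the nucleus and switch on target genes, among them the pathway's own feedback inhibitors. In neural crest, TGF-beta signaling is best known for driving cells towards smooth muscle and other mesenchymal fates, while in pluripotent cells activin and nodal help to sustain the stem cell state and oppose neural fate. Wnt signaling is needed for crest induction, and stronger Wnt signaling gives the cells a more posterior identity.

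Messenger RNA was measured as raw counts per gene, and the 8 libraries held 12396451 to 19106827 counts each. Levels are given per library as counts-per-million (CPM) after TMM scaling. The SB4 effect at a dose is the log2 ratio of the SB4 group over the group without additive. The difference between doses is the effect in high Wnt minus the effect in low Wnt, each with its standard error (SE). A positive difference means that SB4 moved the gene further up, or less far down, in high Wnt. Adjusted p values come from quasi-likelihood F-tests in edgeR, adjusted by Benjamini-Hochberg over 16149 genes, and a gene was called at an adjusted p under 0.05. A count of 0 in a library allows up to 3 counts, which is 0.157 to 0.242 CPM in these libraries and covers counting error only. The data are from bulk cultures, so fewer cells of a type and less RNA per cell cannot be told apart in any result below.

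The promoters of 4 genes with called differences are shown first, taken from the actin, YAP and perivascular groups described below. The promoter set used had no entry for LEFTY2, LEFTY1, TDGF1, TAGLN and MYL9. Each runs from 250 bases before to 50 bases after the gene's start, is read 5′ to 3′ along the gene's strand, and comes from the RefSeq annotation of GRCh38.p14. ACTC1 (cardiac alpha actin; chr15:34795500-34795799, minus strand) and ACTA1 (skeletal alpha actin; chr1:229434045-229434344, minus strand) each hold 1 CArG box, the element bound by serum response factor, in capitals. CTGF (a secreted matricellular protein and a standard target of YAP and TEAD; chr6:131951323-131951622, minus strand) holds 3 copies of the TEAD motif GGAATG, in capitals. VCAM1 (an adhesion molecule; chr1:100719492-100719791, plus strand) holds the SMAD-binding element CAGAC once on each strand, in capitals.
ACTC1: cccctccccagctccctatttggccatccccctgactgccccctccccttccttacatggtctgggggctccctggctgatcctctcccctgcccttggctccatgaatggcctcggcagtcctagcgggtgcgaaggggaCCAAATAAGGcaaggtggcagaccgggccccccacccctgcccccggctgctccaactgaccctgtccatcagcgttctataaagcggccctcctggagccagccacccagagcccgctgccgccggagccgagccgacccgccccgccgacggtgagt
ACTA1: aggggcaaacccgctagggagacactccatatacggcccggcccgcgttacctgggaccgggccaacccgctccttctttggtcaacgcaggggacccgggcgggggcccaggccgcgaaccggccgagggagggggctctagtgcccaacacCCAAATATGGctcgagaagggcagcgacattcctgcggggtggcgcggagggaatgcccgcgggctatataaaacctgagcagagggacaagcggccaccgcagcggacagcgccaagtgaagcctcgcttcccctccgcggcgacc
CTGF: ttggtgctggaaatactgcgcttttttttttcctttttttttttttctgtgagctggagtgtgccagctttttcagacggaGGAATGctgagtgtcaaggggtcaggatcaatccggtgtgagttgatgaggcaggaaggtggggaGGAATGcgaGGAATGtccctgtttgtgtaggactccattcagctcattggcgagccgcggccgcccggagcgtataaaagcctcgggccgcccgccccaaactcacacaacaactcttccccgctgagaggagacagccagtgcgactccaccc
VCAM1: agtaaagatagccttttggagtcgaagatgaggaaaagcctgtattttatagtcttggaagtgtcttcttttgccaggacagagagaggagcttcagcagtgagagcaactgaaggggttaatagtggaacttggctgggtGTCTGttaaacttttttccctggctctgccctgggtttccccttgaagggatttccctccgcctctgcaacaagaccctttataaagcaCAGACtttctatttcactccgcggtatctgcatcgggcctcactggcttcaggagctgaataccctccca
Both strands were searched, and promoters were matched for 11644 of the genes tested. Left in small letters above are 2 copies of CAGAC in ACTC1, 2 of GGAATG in ACTA1 and 1 of CAGAC in CTGF. The CArG box, which was looked at after the data had been seen, was present in 1.12% of all matched promoters, in 2.48% of those with a called lower difference (10 of 404) and in 1.88% of those with a called higher one (6 of 319). GGAATG was in 11% of all, 14.1% of the lower (57 of 404) and 8.78% of the higher (28 of 319). CAGAC was in 43.2%, 45.3% and 43.6%, and the TCF/LEF motif CTTTGAT in 1.4%, 0.99% and 0.627% of the same sets. A match describes the letters in these windows only.

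The SB4 effect differed between doses for 981 of 16149 genes (6.07%). It was higher in high Wnt for 438 (2.71%) and lower for 543 (3.36%), and 576 of the 981 differed by at least 1 on the log2 scale. With library totals in place of TMM the split turned to 511 higher and 455 lower. Within a dose, SB4 changed 3476 genes in high Wnt (21.5%), 1605 of them up (9.94%) and 1871 down (11.6%). In low Wnt it changed 1814 genes (11.2%), 782 of them up (4.84%) and 1032 down (6.39%). Under library totals the high Wnt split turned to 2040 up and 1538 down. The numbers called within a dose also depended on single libraries: high Wnt gave 2153 and 2044 genes without high Wnt + SB4 replicate 1 and 2 and 1942 without high Wnt replicate 1. Low Wnt gave 1067 and 784 without low Wnt + SB4 replicate 1 and 2 and 1014 and 915 without low Wnt replicate 1 and 2.

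Of the 981 genes, 494 were called in high Wnt only, 267 in low Wnt only and 21 at neither dose. SB4 moved 109 in opposite directions with both effects called, 42 of them up in high Wnt and down in low Wnt and 67 the reverse. Another 90 moved the same way at both doses, 62 of them further in high Wnt and 28 further in low Wnt. The 2 effect estimates had opposite signs for 642 of the 981 genes (65.4%), a share that choosing genes by their difference favours. Low expression at one dose was uncommon among the 981, since 919 (93.7%) had a mean of at least 1 CPM in a group at both doses. Of the 10 highest differences named, TDGF1, OTX2, NPTX1 and CDH1 stayed under that mean in high Wnt. Of the 10 lowest, UNCX and IL32 stayed under it in low Wnt. The sign of the difference was the same on the linear CPM scale for 942 (96%). It was the other sign for 39, among them PAX6, SOX1, PAX3, FBLN1 and SP5, so "further" in the text refers to log2 effects. Over the 13457 genes that reached 1 CPM at both doses, the 2 SB4 effects had a Pearson correlation of 0.383 and a Spearman correlation of 0.428, a description across genes of effects that share no library.

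**Figure D1:**
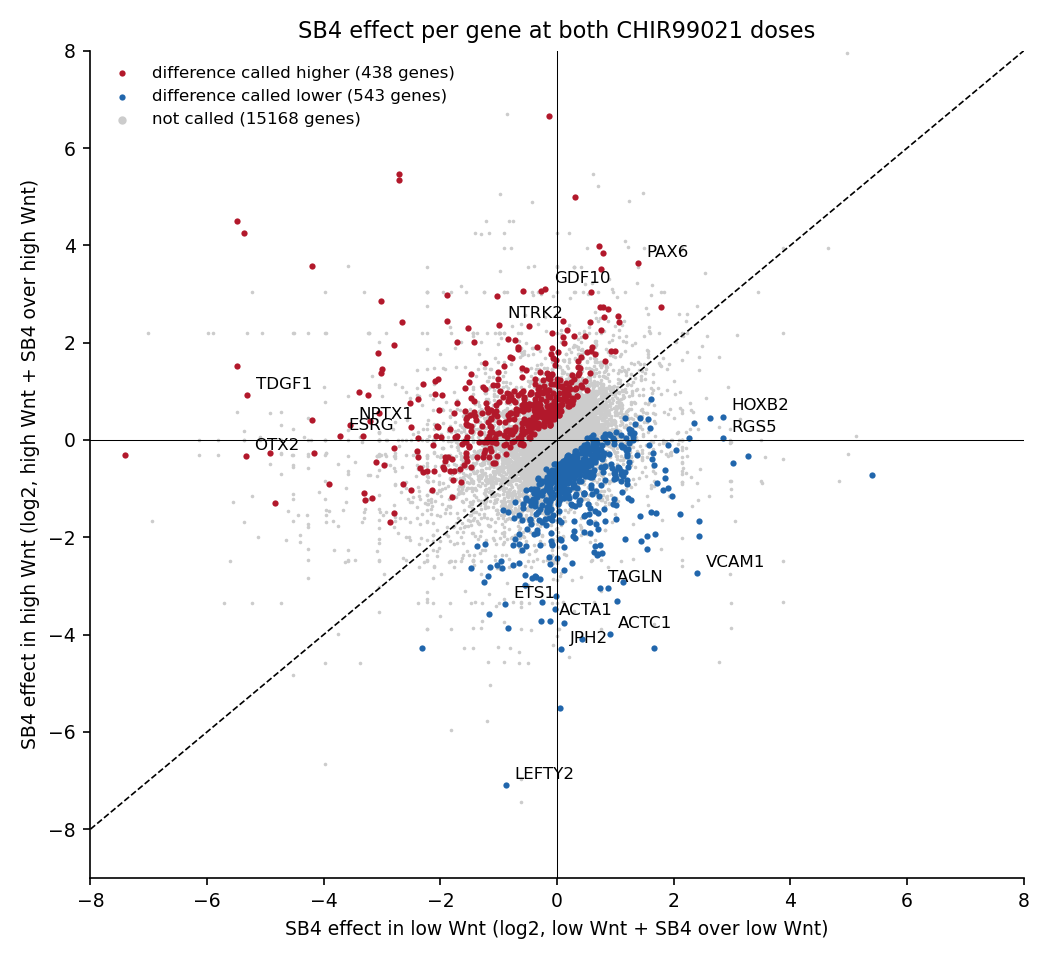
SB4 effect per gene (log2) in low Wnt on the horizontal axis and in high Wnt on the vertical axis. Each point is 1 of 16149 genes, the dashed line marks equal effects, red marks the 438 genes with a called higher difference and blue the 543 with a called lower one. LEFTY2 and the actin genes lie far below the line, while TDGF1 and OTX2 lie far to its left.

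A minority of the tested targets of the inhibited pathway itself had called differences. Of 31 tested members of the list of TGF-beta and nodal feedback and SMAD2/3 target genes, 6 had a lower difference and 0 a higher one, and the median difference was -0.60 against 0.01 over all genes. All list counts here and below stand beside shares of 3.36% lower and 2.71% higher over all genes. Within high Wnt 20 of the 31 fell and 1 rose, while within low Wnt 7 fell and 3 rose.

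LEFTY2, a secreted inhibitor of nodal that nodal signaling switches on, had the lowest difference among called genes that reached 10 CPM in a group. Its level was 1.52 and 0.836 CPM in high Wnt + SB4 against 184 and 134 CPM in high Wnt, and 1.77 and 1.05 CPM in low Wnt + SB4 against 2.25 and 2.81 CPM in low Wnt. The high Wnt libraries alone stood high, and both SB4 groups overlapped. SB4 lowered it by a log2 effect of -7.09 ± 0.249 in high Wnt, its effect in low Wnt was -0.87 ± 0.354 (adjusted p = 0.135), and the difference was -6.22 ± 0.517 (adjusted p = 1.09e-06). The neighbouring paralogue LEFTY1 had 0.127 and 0.167 CPM in high Wnt + SB4 against 7.73 and 6.603 CPM in high Wnt, and 0.427 and 0.157 CPM in low Wnt + SB4 against 0.426 and 0.1196 CPM in low Wnt. It too was high in the high Wnt libraries alone, with a difference of -5.57 ± 0.95 (adjusted p = 0.00148, and 0.0744 without low Wnt + SB4 replicate 1). The LEFTY genes are near-identical copies, and reads that map to both were not counted. NODAL, chosen after its values were seen, had no counts in high Wnt + SB4 against 1.41 and 1.44 CPM in high Wnt. It was at 0.0610 and 0.0524 CPM in low Wnt + SB4 against 0 and 0.179 CPM in low Wnt, and its difference missed the threshold (adjusted p = 0.0535).

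The called members of the list also included TAGLN, CTGF and the ligand TGFB1, which are described with their own groups. The inhibitory SMAD7 and the secreted matrix protein TGFBI fell in high Wnt by -1.35 ± 0.278 and -0.84 ± 0.132, but their differences of -1.02 ± 0.424 and -0.34 ± 0.249 were not called (adjusted p = 0.2 and 0.532). Without the filter on low counts the difference of SMAD7 was called (adjusted p = 0.0207).

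Among ligands and antagonists, 5 of 21 tested members had a lower difference (LEFTY2, LEFTY1, TGFB1, TGFB2 and FSTL1) and 1 a higher one (TDGF1, the nodal co-receptor). TGFB2 had 40.5 and 34.2 CPM in high Wnt + SB4 against 83.4 and 75.9 CPM in high Wnt, and 14.6 and 11.9 CPM in low Wnt + SB4 against 10.3 and 8.97 CPM in low Wnt. SB4 lowered this ligand in high Wnt (-1.09 ± 0.158), its effect in low Wnt was 0.46 ± 0.181 (adjusted p = 0.124), and the difference was -1.55 ± 0.24 (adjusted p = 0.000668). TGFB1 had the same difference of -1.55 (SE 0.271, adjusted p = 0.0018) but fell at both doses, by -2.58 ± 0.179 in high Wnt and by -1.03 ± 0.205 in low Wnt.

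Of 13 tested receptors and SMADs, 1 had a lower difference and 1 a higher one, beside 3.36% and 2.71% of all genes. SMAD3, a main effector of the pathway, stood at 122 and 122 CPM in high Wnt + SB4 against 300.4 and 273 CPM in high Wnt, and 131 and 119 CPM in low Wnt + SB4 against 148 and 138 CPM in low Wnt. Only the high Wnt libraries stood apart from the rest by a wide margin, and the difference was -1.03 ± 0.153 (adjusted p = 0.000431). FOXH1, the DNA-binding partner of SMAD2/3 in nodal signaling, went the other way, since SB4 lowered it further in low Wnt. Its level was 4.38 and 4.24 CPM in high Wnt + SB4 against 8.64 and 7.57 CPM in high Wnt, and 1.34 and 1.36 CPM in low Wnt + SB4 against 8.22 and 8.67 CPM in low Wnt. For FOXH1 the difference was 1.73 ± 0.313 (adjusted p = 0.00242). The SB4 targets ACVR1B and TGFBR1, the type I receptors for activin and nodal and for TGF-beta, had differences of 0.03 ± 0.169 and 0.38 ± 0.171 (adjusted p = 0.964 and 0.253).

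**Figure D2:**
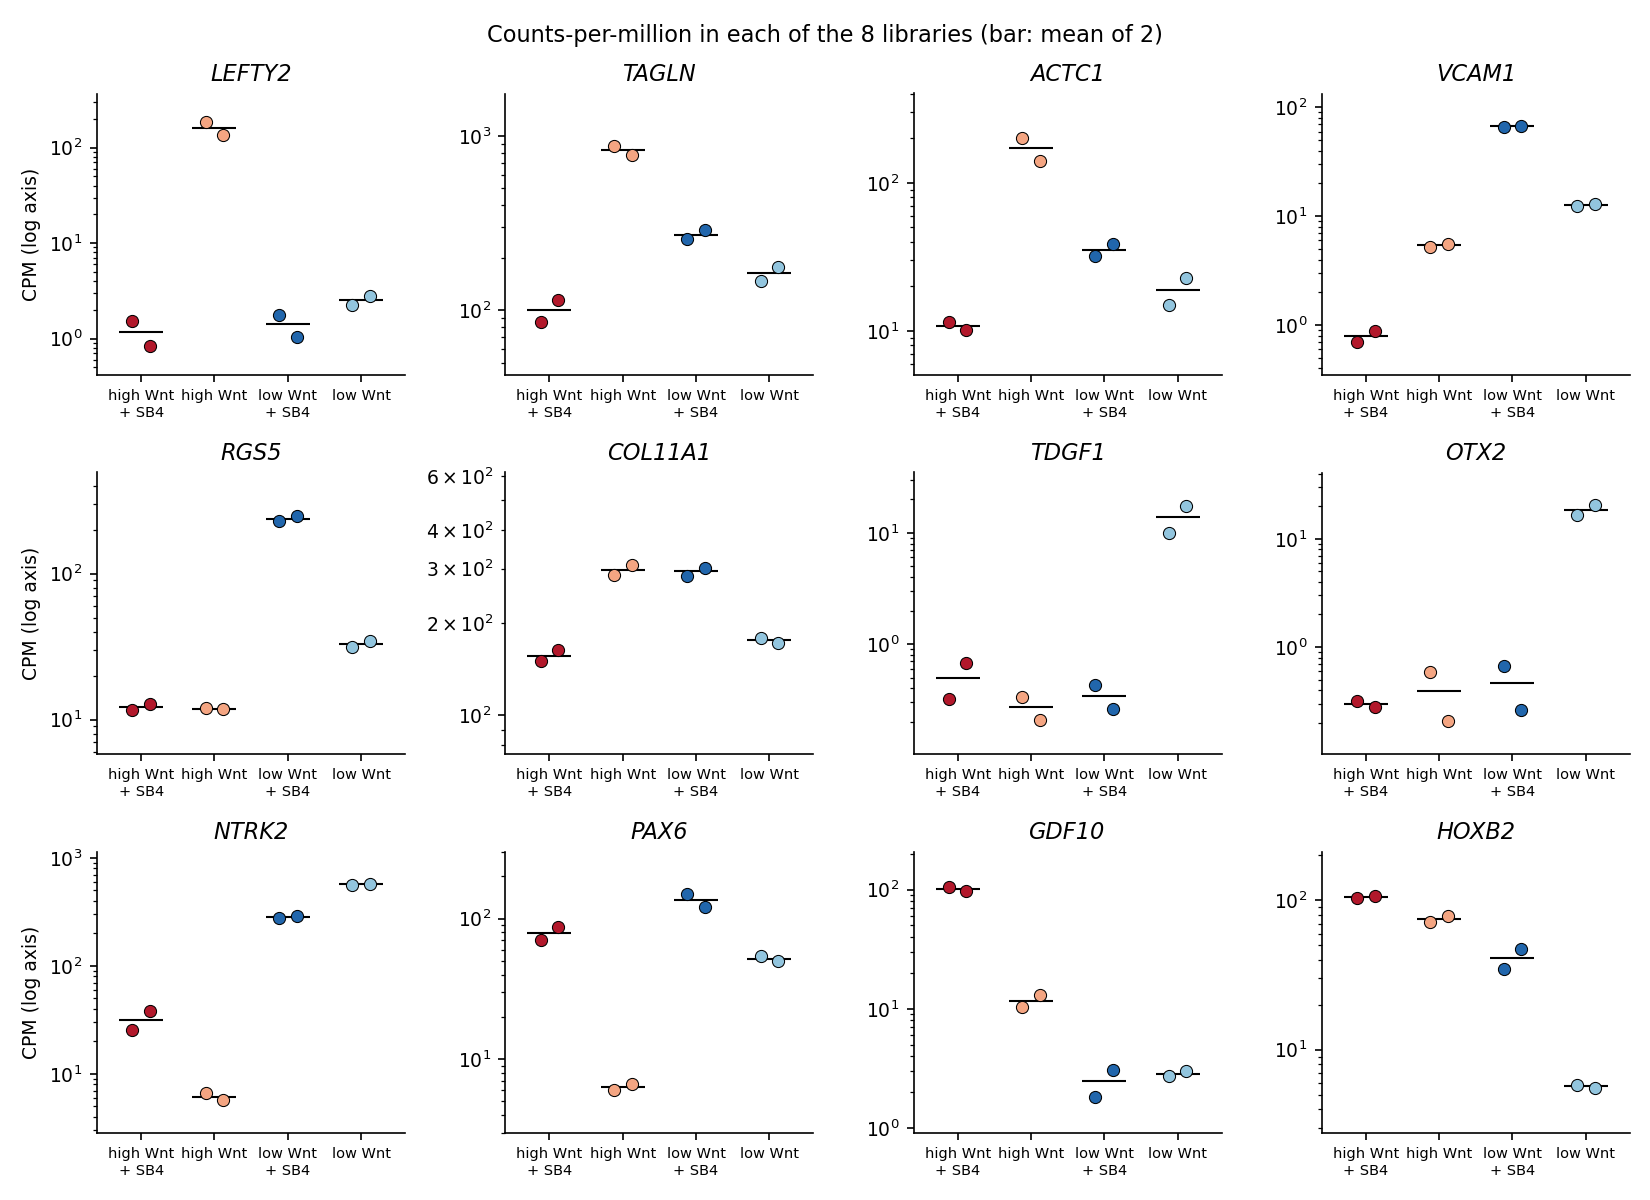
CPM on a log axis in each library for 12 genes, in the order high Wnt + SB4, high Wnt, low Wnt + SB4 and low Wnt. Points are libraries and bars are the means of 2, and each gene has its own axis. LEFTY2 is high in high Wnt alone, TDGF1 and OTX2 in low Wnt alone, and TAGLN, ACTC1 and VCAM1 fall with SB4 in high Wnt and rise with it in low Wnt.

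Smooth muscle contractile genes had the highest share of called members among the lists described, 9 of 16 tested, and all 9 were lower (TAGLN, ACTA2, MYL9, CNN1, CALD1, LMOD1, SMTN, TPM1 and ACTG2). The list's median difference was -1.04. Within high Wnt 11 members fell and 1 rose, while within low Wnt 2 fell and 3 rose.

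TAGLN (transgelin, an actin-binding protein of smooth muscle) had 85.3 and 115 CPM in high Wnt + SB4 against 876 and 777 CPM in high Wnt, and 255 and 288 CPM in low Wnt + SB4 against 148 and 178 CPM in low Wnt. SB4 lowered it in high Wnt to below its low Wnt level and raised it in low Wnt, with no overlap between groups. The effects were -3.04 ± 0.179 and 0.74 ± 0.167, and the difference was -3.78 ± 0.243 (adjusted p = 8.17e-08). ACTA2, smooth muscle alpha actin, had 55.4 and 56.6 CPM in high Wnt + SB4 against 228 and 189.7 CPM in high Wnt, and 40.05 and 41.7 CPM in low Wnt + SB4 against 31.5 and 28.1 CPM in low Wnt. It also fell in high Wnt and rose in low Wnt, but in high Wnt + SB4 it stayed above both low Wnt groups. The effects were -1.90 ± 0.117 and 0.46 ± 0.122, with a difference of -2.36 ± 0.168 (adjusted p = 2.53e-07). MYL9, the regulatory light chain of smooth muscle myosin, also fell in high Wnt (-1.68 ± 0.124) and rose in low Wnt (0.55 ± 0.121). CNN1, the thin-filament protein calponin, fell in high Wnt (-2.01 ± 0.134), and its effect in low Wnt was 0.31 ± 0.137 (adjusted p = 0.17), with a difference of -2.32 ± 0.191 (adjusted p = 1.02e-06).

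The sarcomeric actins whose promoters are printed above also had lower differences. ACTC1 had 11.4 and 10.1 CPM in high Wnt + SB4 against 201 and 141 CPM in high Wnt, and 31.9 and 38.6 CPM in low Wnt + SB4 against 15.04 and 22.6 CPM in low Wnt. High Wnt stood highest of the groups and high Wnt + SB4 lowest, and in low Wnt the order of the groups was reversed. The effects were -3.99 ± 0.223 and 0.91 ± 0.208, and the difference was -4.90 ± 0.303 (adjusted p = 7.15e-08). ACTA1 had 9.21 and 8.80 CPM in high Wnt + SB4 against 143 and 96.3 CPM in high Wnt, and 10.8 and 10.6 CPM in low Wnt + SB4 against 10.6 and 12.6 CPM in low Wnt. It fell in high Wnt alone (-3.73 ± 0.188), its effect in low Wnt was -0.12 ± 0.195 (adjusted p = 0.772), and the difference was -3.61 ± 0.269 (adjusted p = 3.36e-07). The actin genes are near-identical, and reads that map to more than one were not counted, so the split between them is uncertain. Of the defining genes of mature muscle, MYH11, MYOD1 and MYOG did not pass the filter on low counts. MYOCD, the smooth muscle coactivator, was low but measurable in most libraries, and its values were lower with SB4 at both doses. It was at 0.762 and 0.167 CPM in high Wnt + SB4 against 1.66 and 1.1 CPM in high Wnt, and 1.34 and 2.25 CPM in low Wnt + SB4 against 2.80 and 3.11 CPM in low Wnt.

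Among the 10 lowest differences outside that list were CSRP1 and JPH2. CSRP1, a LIM-domain protein that binds the actin cytoskeleton, had 10.6 and 12.5 CPM in high Wnt + SB4 against 98.2 and 92.7 CPM in high Wnt, and 13.8 and 17.9 CPM in low Wnt + SB4 against 7.55 and 9.75 CPM in low Wnt. It fell in high Wnt and rose in low Wnt, with a difference of -3.92 ± 0.253 (adjusted p = 8.17e-08). JPH2, a junctophilin that tethers the plasma membrane to the sarcoplasmic reticulum in heart muscle, was lost with SB4 in high Wnt only. It had 0.572 and 1.00 CPM in high Wnt + SB4 against 16.9 and 14.8 CPM in high Wnt, and 15.4 and 13.9 CPM in low Wnt + SB4 against 13.6 and 14.3 CPM in low Wnt. For JPH2 the difference was -4.37 ± 0.323 (adjusted p = 3.36e-07).

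**Figure D3:**
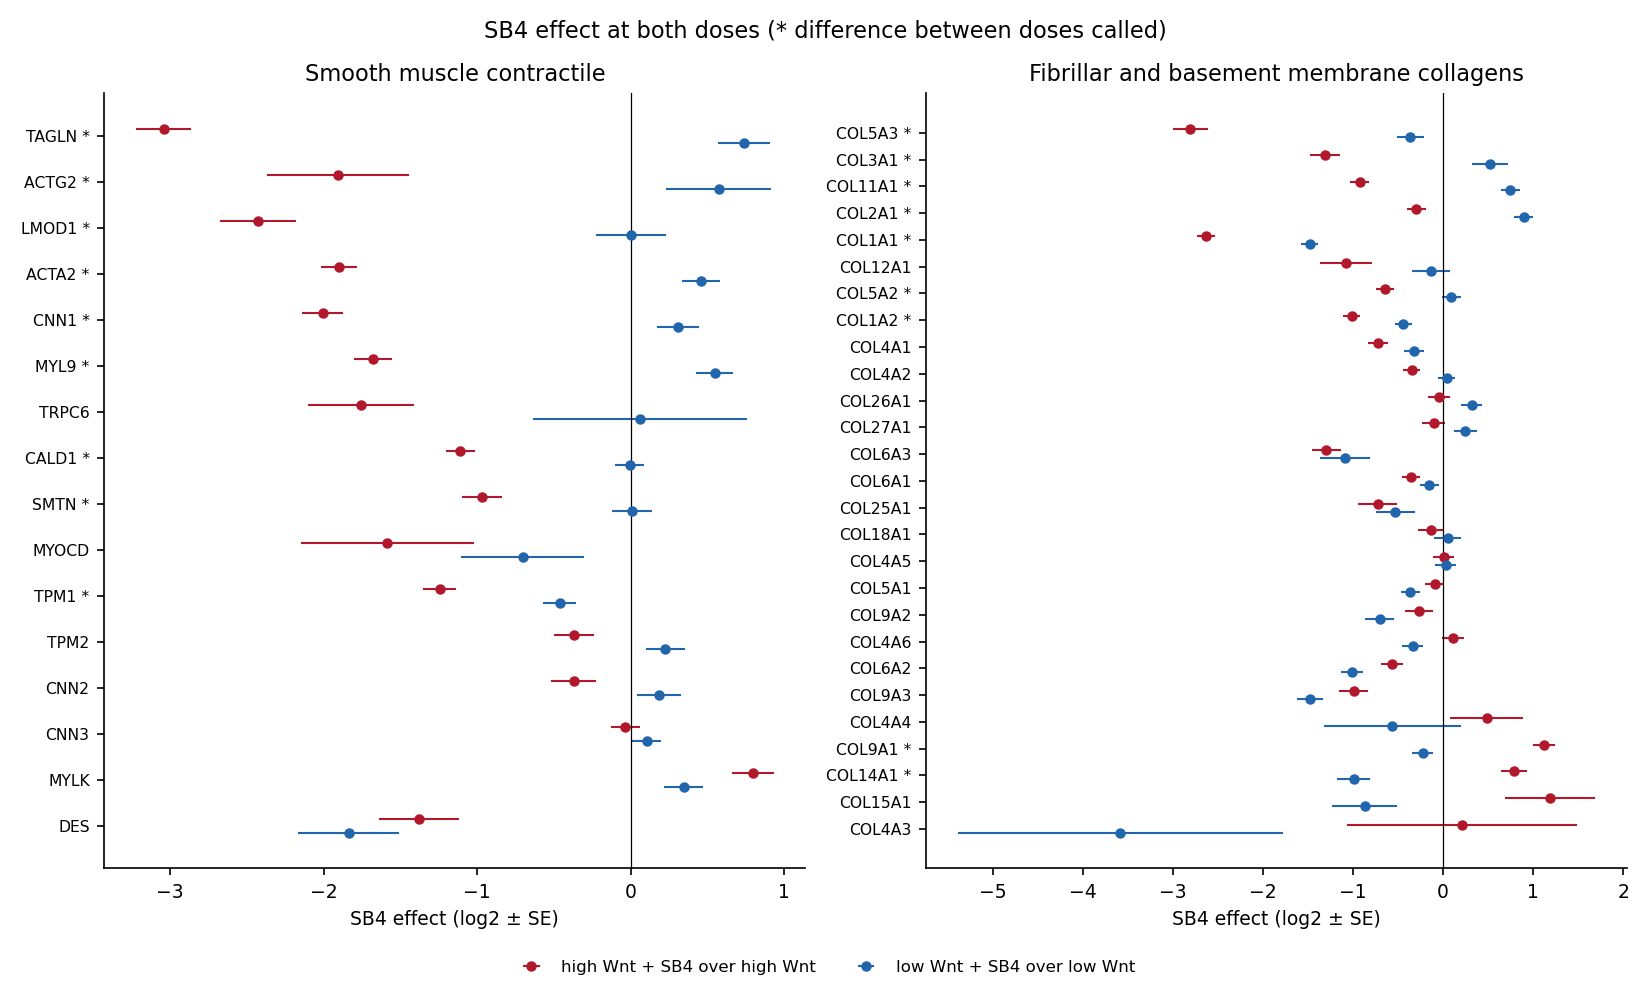
SB4 effect (log2 ± SE) in high Wnt (red) and in low Wnt (blue) for the tested members of the smooth muscle list (16 genes) and of the collagen list (27 genes), ordered by the difference between doses. Asterisks mark called differences, 9 in the smooth muscle list, all with red to the left of blue, and 9 in the collagen list, 7 of them with red to the left.

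YAP and TEAD target genes, which respond to the actin cytoskeleton and to cell tension, included 4 lower and 0 higher differences among 16 tested (CTGF, CYR61, ANKRD1 and AXL), with 10 members down in high Wnt, 2 up and 2 down in low Wnt. CTGF had 72.8 and 99.1 CPM in high Wnt + SB4 against 301 and 232 CPM in high Wnt, and 457 and 479.8 CPM in low Wnt + SB4 against 223 and 243 CPM in low Wnt. Levels without SB4 overlapped between the doses, and SB4 moved them apart, down in high Wnt (-1.63 ± 0.145) and up in low Wnt (1.01 ± 0.14), with a difference of -2.64 ± 0.202 (adjusted p = 4.84e-07). CYR61, a related matricellular protein, had 88.1 and 95.7 CPM in high Wnt + SB4 against 298 and 211 CPM in high Wnt, and 357 and 309 CPM in low Wnt + SB4 against 217 and 209 CPM in low Wnt. It repeated the pattern with a difference of -2.11 ± 0.213 (adjusted p = 9.39e-06). THBS1, the secreted glycoprotein thrombospondin 1, belongs to a list of other matrix genes described below and not to these 16. It stood at 12.4 and 24.0 CPM in high Wnt + SB4 against 164 and 198 CPM in high Wnt, and 39.6 and 81.1 CPM in low Wnt + SB4 against 16.02 and 43.3 CPM in low Wnt. Its low Wnt groups overlapped (effect 1.03 ± 0.412, adjusted p = 0.129), and the difference of -4.33 ± 0.599 (adjusted p = 0.000234) came with a fall of -3.30 ± 0.438 in high Wnt.

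Perivascular marker genes gave 5 lower and 0 higher differences among 13 tested (VCAM1, RGS5, MCAM, CSPG4 and KCNJ8), and they reached them in different ways. VCAM1 had 0.699 and 0.892 CPM in high Wnt + SB4 against 5.24 and 5.57 CPM in high Wnt, and 66.5 and 67.1 CPM in low Wnt + SB4 against 12.4 and 12.9 CPM in low Wnt. SB4 lowered it in high Wnt (-2.74 ± 0.218) and raised it in low Wnt (2.40 ± 0.133), and its difference of -5.15 ± 0.25 (adjusted p = 6.74e-09) came from 8 libraries in 4 groups that did not overlap. RGS5, a regulator of G-protein signaling found in pericytes, had 11.7 and 12.8 CPM in high Wnt + SB4 against 11.97 and 11.8 CPM in high Wnt, and 230.1 and 246 CPM in low Wnt + SB4 against 31.5 and 34.4 CPM in low Wnt. Only low Wnt + SB4 stood apart from the rest by a wide margin, with an effect of 2.85 ± 0.112 there, 0.04 ± 0.133 in high Wnt and a difference of -2.81 ± 0.172 (adjusted p = 7.15e-08). MCAM, an endothelial and pericyte adhesion molecule, moved in high Wnt alone, where it had 35.8 and 36.3 CPM with SB4 and 122 and 105 CPM without it, against 50.9 and 50.9 CPM in low Wnt + SB4 and 47.0 and 52.7 CPM in low Wnt. For MCAM the difference was -1.68 ± 0.149 (adjusted p = 2.35e-06). CSPG4, the proteoglycan NG2, fell at both doses and further in high Wnt, with a difference of -1.51 ± 0.297 (adjusted p = 0.00436, and 0.11 without low Wnt + SB4 replicate 1). PDGFRB, the pericyte growth factor receptor, fell alike, by -1.13 ± 0.104 in high Wnt and -1.12 ± 0.101 in low Wnt. Of the endothelial genes, CDH5 did not pass the filter on low counts.

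Collagens were split, with 7 lower and 2 higher differences among 27 tested and a median of -0.20. SB4 lowered 14 and raised 2 in high Wnt, and lowered 8 and raised 2 in low Wnt. COL1A1, the main chain of type I collagen, fell at both doses and further in high Wnt. It had 79.6 and 84.9 CPM in high Wnt + SB4 against 514 and 506 CPM in high Wnt, and 102 and 85.8 CPM in low Wnt + SB4 against 254 and 269.8 CPM in low Wnt. The SB4 groups of both doses reached nearly the same level, and the difference was -1.15 ± 0.136 (adjusted p = 4.58e-05). COL11A1, a chain of the type XI collagen of cartilage, had 150.2 and 163 CPM in high Wnt + SB4 against 286 and 308 CPM in high Wnt, and 285 and 302 CPM in low Wnt + SB4 against 178 and 172 CPM in low Wnt. SB4 moved it in opposite directions, falling by -0.92 ± 0.105 in high Wnt and rising by 0.74 ± 0.104 in low Wnt (difference -1.67 ± 0.148, adjusted p = 2.35e-06). COL2A1, the main cartilage collagen, had 446 and 446 CPM in high Wnt + SB4 against 542 and 553 CPM in high Wnt, and 612 and 610.4 CPM in low Wnt + SB4 against 320.1 and 338 CPM in low Wnt. It rose in low Wnt (0.89 ± 0.104), its effect in high Wnt was -0.30 ± 0.103 (adjusted p = 0.0501), and the difference was -1.19 ± 0.146 (adjusted p = 6.51e-05). The 2 higher ones were COL9A1 (1.35 ± 0.172) and COL14A1 (1.78 ± 0.236).

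The other matrix genes had 6 lower and 6 higher differences among 37 tested. BGN, the small proteoglycan biglycan, fell in high Wnt alone, where it had 46.8 and 45.7 CPM with SB4 and 164 and 148 CPM without it, against 5.73 and 4.98 CPM in low Wnt + SB4 and 6.52 and 5.68 CPM in low Wnt. For BGN the difference was -1.56 ± 0.176 (adjusted p = 2.93e-05). LAMB1, a laminin chain of basement membranes, went the other way. It had 264 and 254 CPM in high Wnt + SB4 against 399.9 and 402 CPM in high Wnt, and 69.0 and 61.2 CPM in low Wnt + SB4 against 223 and 219.8 CPM in low Wnt, so it fell further in low Wnt. For LAMB1 the difference was 1.14 ± 0.122 (adjusted p = 1.82e-05). FBLN1 (fibulin 1) also fell further in low Wnt (difference 1.02 ± 0.155, adjusted p = 0.000578).

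Called differences among genes of the stem cell state were all higher. Of 19 tested pluripotency genes, 5 had a higher and 0 a lower difference (DNMT3B, TDGF1, ZFP42, L1TD1 and DPPA4), with a median of 1.00. In low Wnt 8 fell and 0 rose with SB4, and in high Wnt 1 fell and 2 rose. The summed level of the list was 2184 and 1918 CPM in high Wnt + SB4 against 2072 and 1836 CPM in high Wnt, and 2369 and 2512 CPM in low Wnt + SB4 against 2856 and 2992 CPM in low Wnt. NANOG, a core stem cell factor, was at 0.731 and 1.67 CPM in low Wnt and at 0 to 0.0635 CPM in the other libraries. The part of remaining stem cells in the low Wnt results of this and the next groups was not tested.

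TDGF1 (cripto), a co-receptor of nodal, had the highest difference among called genes that reached 10 CPM in a group. It had 0.318 and 0.669 CPM in high Wnt + SB4 against 0.332 and 0.206 CPM in high Wnt, and 0.427 and 0.262 CPM in low Wnt + SB4 against 10.1 and 17.4 CPM in low Wnt. Low Wnt alone had a clear level. Over the 2 libraries of a group there were 17 counts in high Wnt + SB4, 7 in high Wnt and 12 in low Wnt + SB4. The effect in low Wnt was -5.31 ± 0.355 and the difference 6.22 ± 0.935 (adjusted p = 0.000511). DNMT3B, a DNA methyltransferase, had 181 and 189 CPM in high Wnt + SB4 against 154 and 153 CPM in high Wnt, and 157 and 145 CPM in low Wnt + SB4 against 241 and 259.8 CPM in low Wnt. It rose slightly in high Wnt (0.27 ± 0.0905) and fell in low Wnt (-0.73 ± 0.0903), with a difference of 1.00 ± 0.128 (adjusted p = 0.000102). ESRG, a long noncoding RNA named for its high level in embryonic stem cells, had 1.21 and 0.892 CPM in high Wnt + SB4 against 1.16 and 0.825 CPM in high Wnt, and 5.91 and 6.76 CPM in low Wnt + SB4 against 78.9 and 89.8 CPM in low Wnt. It fell with SB4 in low Wnt and stayed low in high Wnt (difference 3.81 ± 0.37, adjusted p = 5.74e-06).

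Genes of anterior identity included 3 higher and 0 lower differences among 9 tested of 15 listed, the rest being too low to test. OTX2, the homeobox gene of the forebrain and midbrain, had 0.318 and 0.279 CPM in high Wnt + SB4 against 0.582 and 0.206 CPM in high Wnt, and 0.671 and 0.262 CPM in low Wnt + SB4 against 16.5 and 20.5 CPM in low Wnt. Without SB4 it was present in low Wnt only, and with SB4 it was near the detection limit at both doses (difference 4.99 ± 0.877, adjusted p = 0.00186). LHX5 and DMBX1, with at most 3.17 and 1.61 CPM in any library, were the other called members, and their calls were lost in 7 and 9 of the alternative settings. NPTX1, a secreted pentraxin of neurons, was among the 10 highest differences with a like pattern. It had 0.826 and 0.501 CPM in high Wnt + SB4 against 0.416 and 0.619 CPM in high Wnt, and 11.9 and 9.43 CPM in low Wnt + SB4 against 121 and 129 CPM in low Wnt. For NPTX1 the difference was 3.86 ± 0.606 (adjusted p = 0.00073).

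Of 17 epithelial genes SB4 lowered 9 in high Wnt and 11 in low Wnt, and raised 0. Differences were called for 3 higher (CDH1, EPCAM and CLDN7) and 1 lower (CLDN4). The E-cadherin gene CDH1 had 0.318 and 0.0557 CPM in high Wnt + SB4 against 0.499 and 0.413 CPM in high Wnt, and 0.305 and 0.472 CPM in low Wnt + SB4 against 10.3 and 12.6 CPM in low Wnt. Low Wnt alone had a clear level, and the difference was 3.53 ± 0.976 (adjusted p = 0.0413). All 4 calls are fragile, since each was lost when any of 4 to 7 of the 8 libraries was left out in turn, with adjusted p up to 0.728 for CDH1.

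**Figure D4:**
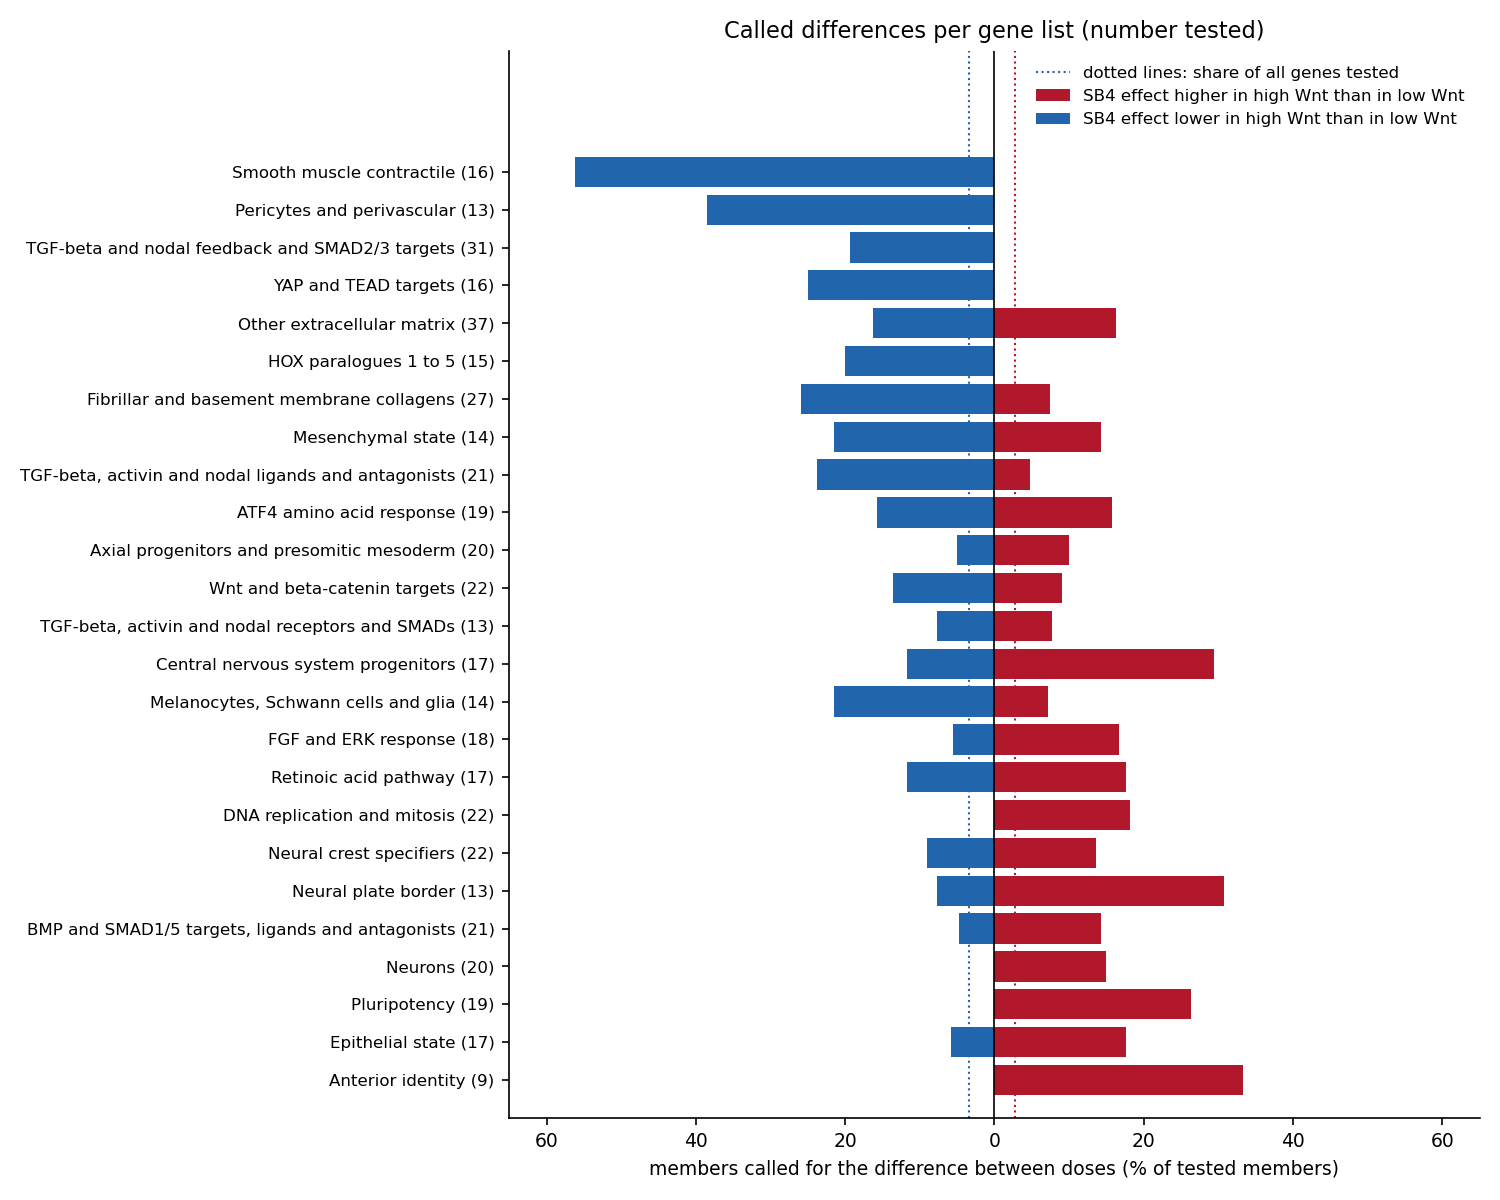
Share of tested members (%) with a called difference, to the right for a higher and to the left for a lower SB4 effect in high Wnt than in low Wnt, for each of 25 gene lists ordered by their median difference. The number tested is in brackets, and dotted lines mark the shares over all genes, 2.71% and 3.36%. Smooth muscle and perivascular genes reach far to the left. Anterior identity, neural plate border, central nervous system progenitor and pluripotency genes reach furthest to the right.

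Of 17 tested central nervous system progenitor genes 9 rose and 1 fell in high Wnt, 9 rose and 0 fell in low Wnt, and the difference was higher for 5 (PAX6, OLIG3, LMX1A, SOX1 and LMX1B) and lower for 2 (NES and FABP7). PAX6, a neural progenitor transcription factor, had 70.0 and 87.6 CPM in high Wnt + SB4 against 5.98 and 6.67 CPM in high Wnt, and 150.3 and 121 CPM in low Wnt + SB4 against 54.1 and 49.99 CPM in low Wnt. The groups did not overlap: high Wnt had the lowest level, while high Wnt + SB4 stood above low Wnt. The effects were 3.63 ± 0.204 and 1.38 ± 0.166, and the difference was 2.25 ± 0.261 (adjusted p = 3.88e-05). SOX1, an early neural plate marker, had 3.50 and 4.35 CPM in high Wnt + SB4 against 0.665 and 1.65 CPM in high Wnt, and 209 and 262 CPM in low Wnt + SB4 against 177 and 176 CPM in low Wnt. Its difference of 1.29 ± 0.331 (adjusted p = 0.0268) lost the call in 5 of the 8 fits that left out a library (adjusted p up to 0.226). OLIG3, a dorsal neural tube gene, rose in high Wnt alone. It had 2.16 and 3.57 CPM in high Wnt + SB4 and 0.166 and 0.481 CPM in high Wnt, against 11.8 and 12.5 CPM in low Wnt + SB4 and 14.4 and 14.8 CPM in low Wnt. For OLIG3 the difference was 3.34 ± 0.487 (adjusted p = 0.000385). SOX2, shared by stem cells and neural progenitors, rose in high Wnt (0.49 ± 0.119), but its difference of 0.43 ± 0.168 was not called (adjusted p = 0.167).

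Among 20 tested neuron genes 3 had a higher and 0 a lower difference, beside 2.71% and 3.36% of all genes. NTRK2, the receptor for brain-derived neurotrophic factor, rose in high Wnt and fell in low Wnt. It had 25.6 and 38.0 CPM in high Wnt + SB4 against 6.65 and 5.71 CPM in high Wnt, and 280.5 and 291 CPM in low Wnt + SB4 against 565 and 574 CPM in low Wnt, with no overlap. The effects were 2.37 ± 0.195 and -0.99 ± 0.144, and the difference was 3.36 ± 0.243 (adjusted p = 2.64e-07). MAP2, a microtubule-binding protein of dendrites, had 80.2 and 86.9 CPM in high Wnt + SB4 against 33.8 and 37.3 CPM in high Wnt, and 405 and 398 CPM in low Wnt + SB4 against 478 and 475 CPM in low Wnt. It rose in high Wnt alone, and the difference was 1.48 ± 0.16 (adjusted p = 1.84e-05). NEUROD4, the other called member, stayed under 1.1 CPM in every library and lost its call whichever library was left out.

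Of the genes with the highest differences, GDF10 and MARCH4 belong to no list. GDF10, a secreted ligand of the TGF-beta superfamily, had 104 and 96.8 CPM in high Wnt + SB4 against 10.3 and 13 CPM in high Wnt, and 1.83 and 3.09 CPM in low Wnt + SB4 against 2.74 and 2.99 CPM in low Wnt. It rose with SB4 in high Wnt alone, by 3.10 ± 0.196, and the difference was 3.30 ± 0.342 (adjusted p = 1.24e-05). MARCH4, a membrane-bound ubiquitin ligase, had 15.2 and 15.5 CPM in high Wnt + SB4 against 2.83 and 1.17 CPM in high Wnt, and 2.13 and 1.73 CPM in low Wnt + SB4 against 4.14 and 3.71 CPM in low Wnt. It rose in high Wnt and fell in low Wnt (difference 3.99 ± 0.43, adjusted p = 1.82e-05).

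At the neural plate border, the origin of the crest, 4 of 13 tested genes had a higher difference, among them ZIC2, ZIC5 and TFAP2C, and 1 a lower one (PAX3). SB4 raised 7 and lowered 0 in high Wnt, and raised 2 and lowered 3 in low Wnt. ZIC2, a zinc-finger transcription factor, had 401 and 371 CPM in high Wnt + SB4 against 260.4 and 232 CPM in high Wnt, and 180.3 and 146 CPM in low Wnt + SB4 against 239 and 181 CPM in low Wnt. It rose in high Wnt, and its effect in low Wnt was -0.36 ± 0.128 (adjusted p = 0.0816). The groups did not overlap at either dose, and the difference was 1.01 ± 0.181 (adjusted p = 0.00216). PAX3, a border and dorsal neural tube gene, rose at both doses and further in low Wnt. It had 237 and 238 CPM in high Wnt + SB4 against 177 and 169 CPM in high Wnt, and 16.8 and 17.4 CPM in low Wnt + SB4 against 8.59 and 6.64 CPM in low Wnt. Its difference of -0.71 ± 0.18 (adjusted p = 0.0255) lost the call in 6 of the 8 fits without a library (adjusted p up to 0.186).

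Neural crest specifier genes were mixed, with 3 higher (ERBB3, ALX4 and B3GAT1) and 2 lower (ETS1 and PAX3) of 22 tested. ETS1, a transcription factor of cranial crest, had 5.27 and 5.46 CPM in high Wnt + SB4 against 57.0 and 55.0 CPM in high Wnt, and 7.74 and 8.12 CPM in low Wnt + SB4 against 13.8 and 15.8 CPM in low Wnt. It fell at both doses, by -3.38 ± 0.144 in high Wnt and -0.90 ± 0.142 in low Wnt, and the difference was -2.48 ± 0.203 (adjusted p = 1e-06). ERBB3, the neuregulin receptor of migrating crest and glia, fell in low Wnt alone. It had 22.9 and 20.6 CPM in high Wnt + SB4 against 23.2 and 22.1 CPM in high Wnt, and 9.21 and 8.07 CPM in low Wnt + SB4 against 18.1 and 17.3 CPM in low Wnt. For ERBB3 the difference was 0.98 ± 0.185 (adjusted p = 0.0034). The crest factor SNAI2 rose at both doses, by 0.68 ± 0.161 in high Wnt and 0.64 ± 0.17 in low Wnt, with a difference of 0.04 ± 0.234 (adjusted p = 0.972). Other defining crest genes were low throughout: SOX10 was at 0.669 to 4.26 CPM, TFAP2A at 0 to 3.84 CPM and FOXD3 at 0.0557 to 0.853 CPM over the 8 libraries, and none had a called difference (adjusted p = 0.652, 0.886 and 1). Within low Wnt SB4 lowered SOX10 from 4.26 and 3.83 CPM to 1.65 and 1.625 CPM (-1.30 ± 0.306, adjusted p = 0.01). Its effect in high Wnt was -0.78 ± 0.378 (adjusted p = 0.157).

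The anterior HOX genes, paralogues 1 to 5, had 3 lower and 0 higher differences among 15 tested, HOXB2 and HOXC4 included. The shares over all genes were 3.36% and 2.71%. Within a dose, 1 rose and 4 fell in high Wnt, and 3 rose and 0 fell in low Wnt. HOXB2, a hindbrain gene, rose at both doses and further in low Wnt. It had 104 and 106 CPM in high Wnt + SB4 against 72.0 and 78.8 CPM in high Wnt, and 34.6 and 47.3 CPM in low Wnt + SB4 against 5.85 and 5.56 CPM in low Wnt. For HOXB2 the difference was -2.36 ± 0.223 (adjusted p = 4.34e-06). The posterior paralogues 6 to 13 gave 0 called differences among 14 tested, beside a share of 6.07% over all genes. By edgeR 1 rose and 7 fell in high Wnt, and 0 were called in low Wnt. For the difference 3 of the 14 had an unadjusted p under 0.05 and DESeq2 called 1 lower, and in low Wnt 1 had such a p. The summed level of the list was 8.9 and 4.56 CPM in low Wnt + SB4 and 11.15 and 11.06 CPM in low Wnt. Most of it was HOXB9, so an SB4 effect in low Wnt could hardly be measured in most other members. HOXB9 had 1640.0 and 1728 CPM in high Wnt + SB4 against 871 and 969 CPM in high Wnt, and 5.79 and 2.99 CPM in low Wnt + SB4 against 8.16 and 7.24 CPM in low Wnt. For HOXB9 the difference was 1.70 ± 0.589 (adjusted p = 0.114), and it was called in the fit of the 8 libraries (adjusted p = 0.00271) and without the filter on low counts (adjusted p = 1.03e-15).

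Axial progenitor genes had 2 higher (SP5 and HES7) and 1 lower (WNT3A) difference among 20 tested. Over all genes the shares were 2.71% higher and 3.36% lower. The defining factors CDX2 and TBXT were expressed almost only at the high dose and showed no called difference. CDX2 had 345 and 282 CPM in high Wnt + SB4, 323 and 312 CPM in high Wnt, with at most 1.67 CPM in any low Wnt library (adjusted p = 0.393). TBXT had 40.7 and 36.0 CPM in high Wnt + SB4 against 56.0 and 46.7 CPM in high Wnt, with at most 0.305 CPM at the low dose (adjusted p = 0.686). SP5, a direct Wnt target, had 20.7 and 15.8 CPM in high Wnt + SB4 against 23.2 and 20.6 CPM in high Wnt, and 0.0610 and 0.105 CPM in low Wnt + SB4 against 1.34 and 1.97 CPM in low Wnt. The ratio in low Wnt, from 3 counts with SB4, was 0.0509 (95% counting interval 0.0102 to 0.157), and the difference of 3.91 ± 0.808 (adjusted p = 0.00637) lost its call without low Wnt + SB4 replicate 1 or 2 (adjusted p = 0.056 and 0.0527). UNCX, a somite homeobox gene, had 8.90 and 6.52 CPM in high Wnt + SB4 against 14.2 and 11.1 CPM in high Wnt, and 0.244 and 0.419 CPM in low Wnt + SB4 against no counts in low Wnt. It fell in high Wnt, and in low Wnt SB4 gave a level at least 3.74-fold higher than 3 counts over the group. The call of its difference (adjusted p = 0.0101) was lost without low Wnt + SB4 replicate 2 or low Wnt replicate 1 or 2 (adjusted p = 0.0789, 0.0536 and 0.0559).

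Wnt target genes had 3 lower (NKD1, DKK1 and LEF1) and 2 higher (SP5 and ROR2) differences among 22 tested, beside 3.36% and 2.71% of all genes. NKD1, a feedback inhibitor of Wnt signaling, had 34.2 and 39.4 CPM in high Wnt + SB4 against 45.4 and 58.9 CPM in high Wnt, and 32.0 and 27.4 CPM in low Wnt + SB4 against 22.5 and 19.2 CPM in low Wnt. It fell in high Wnt (-0.50 ± 0.138) and rose in low Wnt (0.51 ± 0.143), with a difference of -1.01 ± 0.199 (adjusted p = 0.00436). AXIN2, the most widely used Wnt target, had a difference of -0.23 ± 0.198 (adjusted p = 0.604). The calls of DKK1, a secreted Wnt inhibitor (-1.60 ± 0.419, adjusted p = 0.0307), and of the Wnt effector LEF1 (-0.62 ± 0.167, adjusted p = 0.0348) were each lost in 5 of the 8 fits without a library (adjusted p up to 0.173 and 0.206).

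BMP pathway genes had 3 higher (BMP4, CHRD and BMP5) and 1 lower (BMP7) difference among 21 tested, beside 2.71% and 3.36% of all genes. BMP4, a ligand that patterns ectoderm, had 48.6 and 51.3 CPM in high Wnt + SB4 against 44.2 and 39.0 CPM in high Wnt, and 0.914 and 1.15 CPM in low Wnt + SB4 against 4.45 and 4.19 CPM in low Wnt. It fell in low Wnt alone (-2.04 ± 0.276), with a difference of 2.31 ± 0.319 (adjusted p = 0.000234). BMP7, a related ligand, fell in high Wnt alone. It had 55.5 and 52.9 CPM in high Wnt + SB4 against 88.6 and 76.5 CPM in high Wnt, and 157 and 151 CPM in low Wnt + SB4 against 139 and 133 CPM in low Wnt. For BMP7 the difference was -0.79 ± 0.134 (adjusted p = 0.00147).

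Of 22 DNA replication and mitosis genes SB4 raised 11 in high Wnt and 4 in low Wnt, and lowered 0 and 1. The difference was higher for 4, all subunits of the replicative helicase (MCM3, MCM4, MCM5 and MCM6). MCM5 had 165 and 153 CPM in high Wnt + SB4 against 79.4 and 86.1 CPM in high Wnt, and 147 and 145 CPM in low Wnt + SB4 against 123 and 132 CPM in low Wnt. High Wnt alone stood low, and the difference was 0.75 ± 0.173 (adjusted p = 0.0143). Each of the 4 calls was lost in 4 to 7 of the 8 fits without a library, with adjusted p of at most 0.196.

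Besides NTRK2, VCAM1, ACTC1, CSRP1 and TAGLN, the genes with the smallest p values among those that SB4 moved in opposite directions were IGFBPL1, ADCYAP1R1, CA4, APELA and PPP1R14C. IGFBPL1, a secreted protein related to insulin-like growth factor binding proteins, had 228 and 252 CPM in high Wnt + SB4 against 119 and 134 CPM in high Wnt, and 31.9 and 31.1 CPM in low Wnt + SB4 against 121 and 126 CPM in low Wnt. The doses overlapped without SB4 and lay far apart with it, with effects of 0.92 ± 0.109 and -1.97 ± 0.116 and a difference of 2.90 ± 0.159 (adjusted p = 2.13e-08). APELA, a peptide hormone of early embryos, had 8.20 and 9.70 CPM in high Wnt + SB4 against 3.32 and 5.09 CPM in high Wnt, and 10.97 and 11.2 CPM in low Wnt + SB4 against 30.0 and 36.5 CPM in low Wnt. For APELA the difference was 2.65 ± 0.255 (adjusted p = 5.39e-06). ADCYAP1R1, the receptor for the neuropeptide PACAP, and CA4, a membrane-bound carbonic anhydrase, likewise rose in high Wnt and fell in low Wnt, with differences of 2.41 ± 0.203 and 2.81 ± 0.26. PPP1R14C, an inhibitor of protein phosphatase 1, did the reverse. It had 10.2 and 7.91 CPM in high Wnt + SB4 against 41.0 and 40.5 CPM in high Wnt, and 86.6 and 87.0 CPM in low Wnt + SB4 against 58.3 and 52.2 CPM in low Wnt. For PPP1R14C the difference was -2.83 ± 0.181 (adjusted p = 8.17e-08). IL32, an inflammatory cytokine, completed the 10 lowest differences. It had 2.60 and 3.23 CPM in high Wnt + SB4, 42.0 and 38.0 CPM in high Wnt and at most 0.366 CPM at the low dose. Its difference of -3.89 ± 1.1 (adjusted p = 0.0449) thus sets a fall in high Wnt against near absence in low Wnt. The call was lost in 7 of the 8 fits without a library (adjusted p up to 0.757).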

How the data were processed

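The deposited data are raw gene counts of 14 libraries in 1 table (26485 genes, 4943 with 0 counts in every library). Per the submitters' processing notes, the tools were HISAT2 2.2.0, featureCounts 2.0.0, SAMtools 1.10 and bcl2fastq, and the genome was hg38. Per the file headers, read pairs were counted over exons of UCSC hg38 genes with reverse strandedness, and neither multiply mapped reads nor reads overlapping several genes were counted, so near-identical or overlapping genes can lose reads. How reads were trimmed, and whether duplicates were removed, is not given in the sources used here. Per the labels' protocols, libraries were made from polyadenylated RNA with a kit that keeps the strand.

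The analysis used edgeR 4.0.16 (R 4.3.3): filterByExpr by group (16149 genes kept), TMM scaling and quasi-likelihood F-tests in a joint model of the 14 libraries with a mean for each group (7 residual degrees of freedom, common biological coefficient of variation 0.101). The procedure was tested on simulated data. Replicate libraries of the 4 groups correlated at 0.989 to 0.992 (log2 CPM across genes). Their counts were further apart than sampling noise allows (6.52 to 8.48 for chi-square over its degrees of freedom). Each library was counted as a sample, but this spread does not show that the libraries are separate cultures. In a principal component analysis of the 8 libraries the first component (69.4%) separated the doses and the second (13%) the SB4 groups from the others. On the third (6.93%) the SB4 groups lay at 20.2 and 16.2 against -18.8 and -15.7 in high Wnt, and at -24.2 and -23.0 against 22.1 and 23.2 in low Wnt.

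The comparison, its members and the 35 gene lists were chosen with earlier results of these data known, so list counts are descriptions beside the share over all genes. Named were the 10 highest and 10 lowest called differences with protein-coding-style symbols and at least 10 CPM in a group, the 5 smallest p for each direction among genes moved oppositely at the doses, from each list described up to 4 members by smallest p, and a panel. Other genes named beside a small list count, and NODAL, MYOCD, PDGFRB and NANOG, were chosen after their values were seen. The results of a few genes that the rule names are not reported here. Tried as alternatives were RLE scaling, no filter, DESeq2 1.42.0, library totals alone, a block on the replicate number, a fit of the 8 libraries, a log2 threshold of 1, and leaving out each of the 8 libraries in turn.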

Additional observations from a re-analysis of the deposited data

Results flagged for a closer look

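The 981 genes with a called difference between doses are flagged as a whole, because the SB4 effects in high Wnt and in low Wnt differed by the test of the difference itself. Of these, 109 were called at both doses with opposite signs. Named genes that SB4 raised in high Wnt and lowered in low Wnt had these differences on the log2 scale: MARCH4 3.99, ALX4 3.44, NTRK2 3.36, IGFBPL1 2.90, CA4 2.81, APELA 2.65, ADCYAP1R1 2.41, DNMT3B 1.00, CDH11 0.94 and ZIC5 0.86. Those that it lowered in high Wnt and raised in low Wnt had differences of -1.01 for NKD1, -1.67 for COL11A1, -2.11 for CYR61, -2.22 for MYL9, -2.36 for ACTA2, -2.64 for CTGF, -2.83 for PPP1R14C, -3.21 for EDNRB, -3.78 for TAGLN, -3.92 for CSRP1, -4.90 for ACTC1, -5.15 for VCAM1 and -6.11 for UNCX. The value for UNCX depends on the prior count, since low Wnt had no counts, and is no bound. With 2 libraries in a group no library could be tested as an outlier.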

How the results depend on the processing

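The number of genes with a called difference, 981, was 985 with RLE scaling, 966 with library totals alone, 1405 without the filter, 1091 in the 8 libraries alone and 1054 with DESeq2, and 661 to 775 when a library was left out. A log2 value of at least 1 left 576 genes for the difference, 962 for high Wnt and 711 for low Wnt. Leaving out a library gave 1942 to 3307 genes for high Wnt and 784 to 1787 for low Wnt. The main fit did not pair the samples by replicate number. Deviations of same-numbered libraries correlated at 0.0415 to 0.206 between the 4 groups, which does not settle whether they were paired. The replicate block gave 1147 genes for the difference, 3879 for high Wnt and 2101 for low Wnt, and ended the call of 1 of 105 named genes (EPCAM). Apart from the log2 threshold, 69 of the 105 called named genes kept their call in every setting and 36 lost it in at least 1, 9 of them in a setting that left out no library. Besides those stated with their values, these include HOXC4, NES, FABP7, WNT3A, LMX1A and BMP5. Of 17 named genes without a call, HOXB9 gained one in 2 settings and SMAD7 in 1, as stated beside their values. Direction changed in uncalled genes alone: leaving out a library gave -0.0914 to 0.138 for ACVR1B, -1.51 to 0.686 for FOXD3, -0.127 to 0.204 for SNAI2 and -3.71 to 1.38 for TFAP2A, and library totals gave 0.00905 for FOXD3. The causes were not tested. Depth limits genes near 3 counts, where a missing effect at a dose cannot be told from a level too low to measure.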

Other observations

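In the gene groups described below, called differences ran in both directions, apart from cholesterol and fatty acid synthesis genes, which had 0. The shares over all genes were 2.71% higher and 3.36% lower. Of 17 retinoic acid pathway genes 3 had a higher difference (CYP26C1, RARB and RARG) and 2 a lower one (MEIS1 and CRABP2). The call of RARG was lost in 7 of the 8 fits without a library (adjusted p up to 0.171) and that of CYP26C1 in 2 (up to 0.062). MEIS1, a HOX cofactor, had 63.1 and 72.7 CPM in high Wnt + SB4 against 78.5 and 70.7 CPM in high Wnt, and 60.4 and 66.0 CPM in low Wnt + SB4 against 28.4 and 28.3 CPM in low Wnt. It rose in low Wnt alone, to a level close to that of the high Wnt groups (difference -1.29 ± 0.159, adjusted p = 7.03e-05). RARB, a retinoic acid receptor, had 25.7 and 28.6 CPM in high Wnt + SB4 against 9.64 and 15.2 CPM in high Wnt, and 89.8 and 86.5 CPM in low Wnt + SB4 against 83.9 and 83.2 CPM in low Wnt, and rose in high Wnt alone (difference 1.04 ± 0.221, adjusted p = 0.0077).

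Of 18 genes of the FGF and ERK response 3 had a higher difference (PHLDA1, SPRY1 and ETV4) and 1 a lower one (DUSP5), and ETV4 lost its call in 2 of the 8 fits without a library (adjusted p up to 0.124). SPRY1, a feedback inhibitor of FGF signaling, had 54.2 and 60.3 CPM in high Wnt + SB4 against 48.6 and 59.3 CPM in high Wnt, and 3.11 and 2.83 CPM in low Wnt + SB4 against 6.70 and 6.70 CPM in low Wnt. It fell in low Wnt alone (difference 1.26 ± 0.235, adjusted p = 0.00307). DUSP5, a phosphatase that acts on ERK, fell in high Wnt alone, with 33.5 and 46.7 CPM in high Wnt + SB4 against 115 and 110.1 CPM in high Wnt, and 21.3 and 23.9 CPM in low Wnt + SB4 against 22.4 and 28.7 CPM in low Wnt (difference -1.31 ± 0.264, adjusted p = 0.00531). Among 14 melanocyte, Schwann cell and glial genes EDNRB, the endothelin receptor of crest-derived lineages, had the lowest difference. It had 4.89 and 3.06 CPM in high Wnt + SB4 against 18.2 and 14.4 CPM in high Wnt, and 7.13 and 6.55 CPM in low Wnt + SB4 against 2.19 and 3.89 CPM in low Wnt, and SB4 lowered it in high Wnt and raised it in low Wnt (difference -3.21 ± 0.355, adjusted p = 2.38e-05).

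Of 14 mesenchymal genes 3 had a lower difference (ZEB1, VIM and CDH2) and 2 a higher one (CDH11 and PDGFRA). The calls of ZEB1, VIM and PDGFRA were lost in 3, 4 and 3 of the 8 fits without a library (adjusted p up to 0.0681, 0.0866 and 0.111). Of 19 genes of the amino acid response driven by ATF4, 3 had a higher difference (STC2, VLDLR and SLC7A11) and 3 a lower one (ATF3, ASNS and SLC7A5), and the calls of ASNS and VLDLR were lost in 5 and 3 of the 8 fits (adjusted p up to 0.0862 and 0.12). CDH11, a cadherin of mesenchyme, had 358 and 356 CPM in high Wnt + SB4 against 265 and 299 CPM in high Wnt, and 200.2 and 202 CPM in low Wnt + SB4 against 313 and 299 CPM in low Wnt, with a difference of 0.94 ± 0.141 (adjusted p = 0.000487). Cholesterol and fatty acid synthesis genes had 0 called differences by edgeR and 0 by DESeq2 among 20 tested, with 6 at an unadjusted p under 0.05. Over all genes the share called by edgeR was 6.07%, so a count of 0 says little about this list. Of the 20, 9 rose in high Wnt and 2 in low Wnt with SB4, beside 9.94% and 4.84% of all genes.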
